A study of Mus musculus with 44 samples.

Results

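Levels of 9 interferon-response genes, Ifitm1, Ifitm2, Ifitm3, Isg15, Ifit1, Ifit3, Bst2, Stat2 and Irf1, were described in 44 single cells of adult mouse hindlimb muscle. The genes were chosen by name, and all 9 were found among the 12707 gene symbols of the deposited table. The cells came from adult C57BL/6 mice of the genotype Prrx1-CreERT;Tomato, in which Prrx1 sequences drive a Cre recombinase that needs tamoxifen to act, and cells where it has acted stay marked by red fluorescence. Each mouse received 2 mg of tamoxifen daily over 3 days, and digested muscle was sorted for Tomato before single cells were picked under a fluorescence microscope. All cells form 1 group with no untreated, interferon-treated or unlabelled cells, and no animals are named, so the 44 cells count as 1 sample and no p-value is given.

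Interferons are secreted signals of antiviral defence. Type I interferons bind a receptor of Ifnar1 and Ifnar2, the kinases Jak1 and Tyk2 then activate a complex that holds Stat2 and Irf9 and binds the interferon-stimulated response element in the promoters of induced genes. Interferon gamma acts through Ifngr1, Ifngr2, Jak1 and Jak2 on genes with gamma-activated sites, such as Irf1. Some of the induced genes are also made by progenitor and stromal cells without added interferon.

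Values are log2 FPKM as deposited, that is, fragments per kilobase of transcript after scaling by library size. The deposited values follow nearly the same distribution in every cell, with a median of 4022 rows per cell reaching 1 and 1540 reaching 5, and the sequencing depth is unknown. A gene was counted as present at a log2 value of 5 or more, which is an FPKM of 31. Libraries fell into 6 blocks of 7 cells by their rank correlations, and cells 30 and 44 were in no block. The median rank correlation was 0.624 between cells of a block and 0.477 between other cells. The blocks were cut from these same correlations, so this difference is no separate evidence for them. For Ifitm1, Ifit1 and Ifit3, values under 5 were higher in cells of a block that held a cell with the gene at 5 or more than in other cells. For Stat2 they were not, with 3 of 28 such cells at a log2 value of 1 against 3 of 9 others. For Bst2, 14 of 25 such cells reached a log2 value of 1 against 4 of 9 others, and for Irf1 21 of 29 against 1 of 2. Each cell held 4 to 10 of 10 fibro-adipogenic progenitor or fibroblast markers, no cell held any of 8 endothelial markers, and of 8 leukocyte markers only Cd68 was present, in 1 cell.

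Ifitm2 and Ifitm3 stood apart from the other 7 genes. Ifitm2 and Ifitm3, membrane proteins that restrict virus entry, were present in 44 of 44 cells (100%, exact Clopper-Pearson 95% interval 91.96 to 100). Irf1, Bst2 and Stat2 were present in 13, 10 and 7 cells, and a log2 value of 1 was reached in 35, 28 and 13. Ifit1, Ifit3 and Ifitm1 were present in 3, 2 and 1 cells, and reached a log2 value of 1 in 11, 9 and 14. Isg15 was present in 0 cells and reached a log2 value of 1 in 1. Of all 12707 symbols, 5.25% reached a log2 value of 5 in at least 22 cells and 0.59% in all 44, against 2 of these 9 genes in both cases. A further 67.6% reached it in 1 to 13 cells, against 6 of the 9. The median number of cells was 7 over the 9 genes and 2 over all symbols. At a log2 value of 1, 4 of the 9 genes were present in at least 22 cells, against 25.4% of all symbols.

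**Figure D1:**
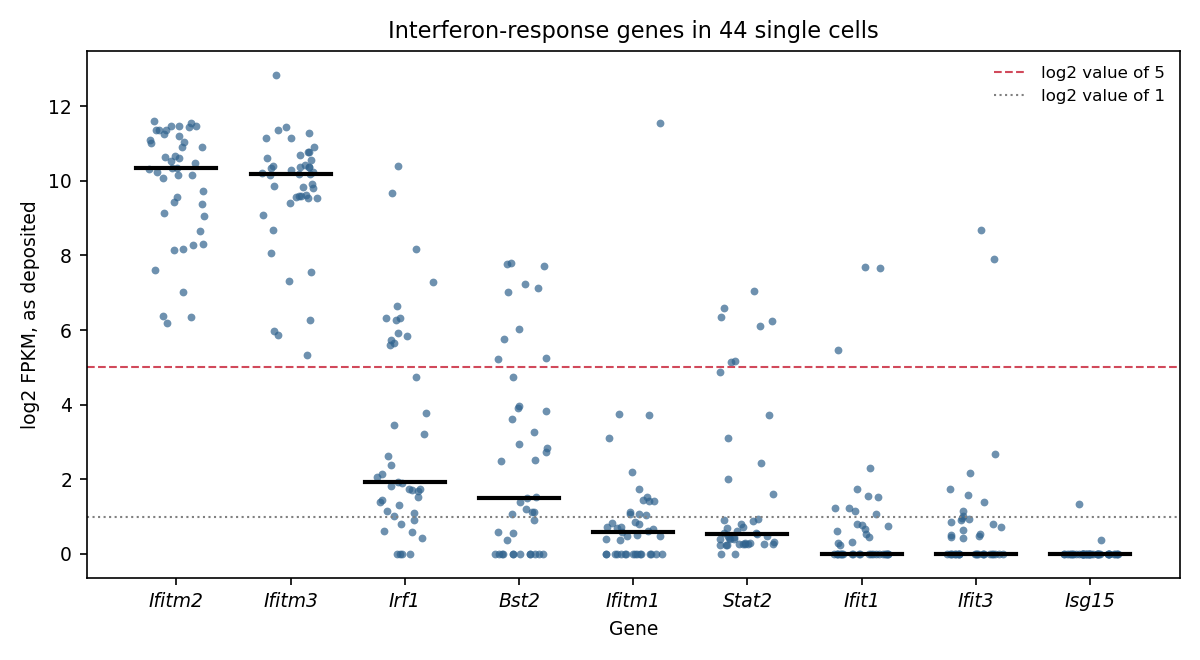
Log2 FPKM of the 9 genes, 1 point per cell (44 cells, 1 group), with the median as a black bar, a red dashed line at a log2 value of 5 and a gray dotted line at 1. All points of Ifitm2 and Ifitm3 lie above 5, and all points of Isg15 lie at or below 1.35.

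The sequences around the gene starts are shown because the gene present in no cell carried more matches to the response element than those present in every cell. Each line runs 5′ to 3′ from 150 bases before to 30 bases after the RefSeq start of the gene (GRCm38.p6). Capitals mark matches to the interferon-stimulated response element on either strand, searched as GAAA, any 2 bases and GAAA again.
Ifitm3: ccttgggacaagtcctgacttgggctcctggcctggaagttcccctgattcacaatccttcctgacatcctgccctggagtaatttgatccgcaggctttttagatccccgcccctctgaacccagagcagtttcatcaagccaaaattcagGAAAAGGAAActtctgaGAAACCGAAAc
Ifitm2: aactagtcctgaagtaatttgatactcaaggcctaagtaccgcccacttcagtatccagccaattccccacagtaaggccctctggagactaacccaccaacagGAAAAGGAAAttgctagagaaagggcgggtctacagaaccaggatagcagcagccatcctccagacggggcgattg
Ifitm1: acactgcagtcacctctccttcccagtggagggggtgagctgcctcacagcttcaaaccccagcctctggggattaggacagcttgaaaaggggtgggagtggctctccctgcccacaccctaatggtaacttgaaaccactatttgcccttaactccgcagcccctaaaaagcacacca
Bst2: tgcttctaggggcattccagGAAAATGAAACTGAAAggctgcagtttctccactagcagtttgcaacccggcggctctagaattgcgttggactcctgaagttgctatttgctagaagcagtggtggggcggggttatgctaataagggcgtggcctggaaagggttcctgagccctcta
Isg15: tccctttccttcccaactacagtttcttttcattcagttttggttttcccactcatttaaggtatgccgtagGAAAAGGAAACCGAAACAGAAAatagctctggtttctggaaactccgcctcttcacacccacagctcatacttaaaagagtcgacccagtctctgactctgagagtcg
Ifit1: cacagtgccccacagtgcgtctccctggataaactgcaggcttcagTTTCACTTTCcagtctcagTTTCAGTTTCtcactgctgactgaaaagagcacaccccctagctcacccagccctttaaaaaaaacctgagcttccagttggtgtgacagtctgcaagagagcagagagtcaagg

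The windows are chr7:141010715-141010894, chr7:140955932-140956111, chr8:71537443-71537622 and chr4:156200789-156200968 on the minus strand, and chr7:140967926-140968105 and chr19:34640739-34640918 on the plus strand. Over the full 300 bases of the RefSeq promoter table (250 before and 50 after the start), the response element was found for 7 of the 9 genes, and in 3.44% of all 32851 promoters. At least 2 matches, overlapping ones included, were found for 5 of the 9 genes and in 0.225% of all promoters. Isg15 had 3 overlapping matches between bases -78 and -57 and was present in 0 cells. Ifitm2 had 1 match, at -46 to -37, and was present in all cells. The 2 matches of Ifitm3 lay just after the start, at 3 to 12 and 20 to 29, and the GENCODE annotation starts that gene 26 bases earlier. Ifit1 and Ifit3 had 2 matches each on the reverse strand, Bst2 had 2 that overlap, and Stat2 had 1. Matches to the gamma-activated site, TTCNNNGAA, were found for Irf1 at -90 to -82, for Bst2 and for Ifitm3, and in 8.30% of all promoters. The match of Bst2 overlaps its response element, as does that of Ifitm3. For Ifitm1 neither set of letters occurs in this window, whose start lies 855 bases inside the GENCODE gene. These matches are descriptions of sequence, and binding was not measured.

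**Figure D2:**
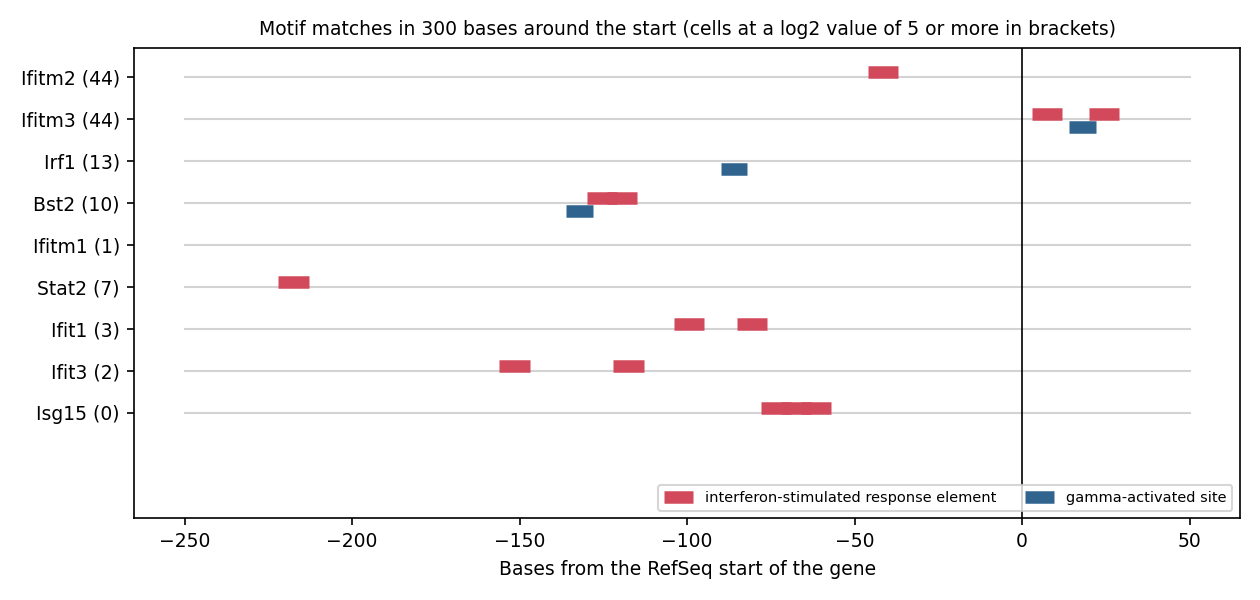
Matches to the interferon-stimulated response element (red) and the gamma-activated site (blue) in the 300 bases around the RefSeq start of each gene (the first of 2 starts for Irf1), with the number of cells at a log2 value of 5 or more in brackets. Isg15, present in 0 cells, has 3 overlapping matches to the response element, while Ifitm2 and Ifitm3, both present in 44, have 1 and 2.

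Ifitm2 and Ifitm3 had the highest levels. Ifitm2 (ENSMUSG00000060591, GENCODE M21 on GRCm38: chromosome 7, 140954837 to 140955987, minus strand) ranged over the 44 cells from a lowest log2 value of 6.19 through a median of 10.35 to a highest of 11.61. Ifitm3 (ENSMUSG00000025492, chromosome 7, 141009586 to 141010770, minus strand) ranged from 5.33 through a median of 10.18 to 12.85. Their median FPKM of 1306 and 1163 ranked 39 and 51 among all symbols, but the lowest value of Ifitm3 lay just above the threshold of 5. Ifitm2 was above Ifitm3 in 26 cells and below it in 18, and their quartiles overlap, so the order of the 2 is not resolved. Ifitm3 was above Irf1, the next gene in the order, in 42 of 44 cells.

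The interquartile range differed between the pair, while the standard deviations were close, at 1.54 for Ifitm2 and 1.58 for Ifitm3. The interquartile range of the log2 value was 1.99 for Ifitm2, wider than in 40 of the 48 genes whose median lay within 0.5 of its own. For Ifitm3 it was 1.02, and only 6 of 55 such genes were narrower. Most cells therefore held Ifitm3 at a similar level, and a few held far less.

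The 3 cells with the lowest Ifitm3 were those with most tendon-type RNA, but the next lowest held no tenocyte marker. Cells 8, 17 and 40 had log2 values of Ifitm3 of 5.33, 5.88 and 5.96, the lowest 3 of the 44, and held 5, 6 and 5 of 7 measured tenocyte markers. Cell 7 held 3 and had an Ifitm3 value of 9.58, and no other cell held more than 2. The 4 cells with at least 3 markers had a median Ifitm3 of 5.92, against 10.22 in the other 40, whose lowest value was 6.26. The groups overlap only through cell 7. Cells 21, 16 and 13, the next lowest in Ifitm3 at 6.26, 7.31 and 7.57, held 0 tenocyte markers. In the same 4 cells the median of Ifitm2 was 10.51, against 10.33 in the others, although cell 17 was low in Ifitm2 too, at 7.60. Cells 8, 17 and 40 lie in 3 different blocks. The mean log2 value of the tenocyte list was 4.44 to 9.32 in the 4 cells, against 0.202 to 3.75 in the others. The 4 cells were picked by markers of this same list, so this difference is no separate evidence for them. Of the 7 markers, cells 8, 17 and 40 had 1 at 0 each, and cell 7 none. Scx is not analysed here, and the part of these other RNAs in the level of Ifitm3 was not tested. This comparison was chosen after the values were seen.

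**Figure D3:**
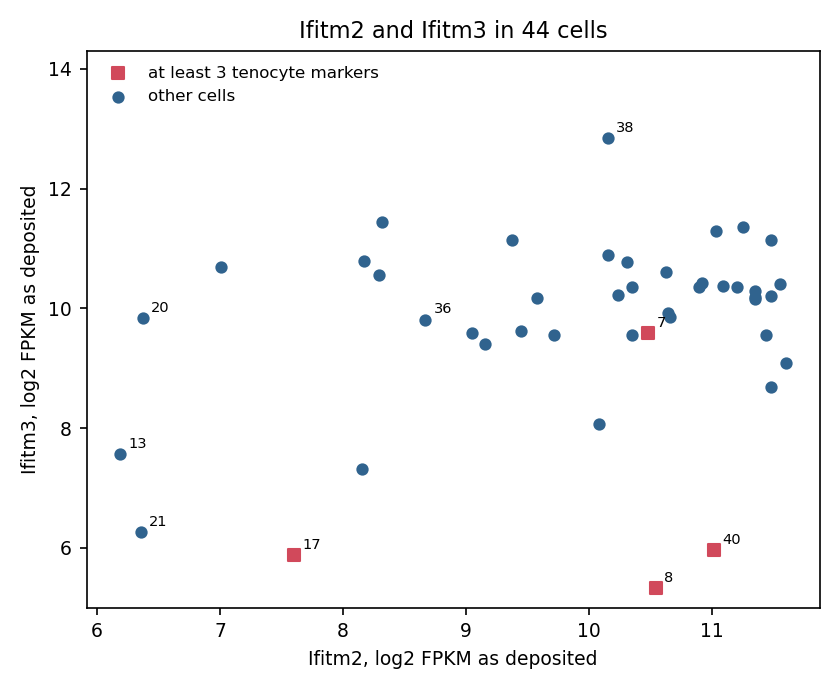
Log2 FPKM of Ifitm2 (horizontal) and Ifitm3 (vertical), 1 point per cell, with cell numbers beside some points and red squares for the 4 cells with at least 3 tenocyte markers. Cells 8, 17 and 40 have Ifitm3 values of 5.33 to 5.96 while their Ifitm2 values lie between 7.60 and 11.01.

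Ifitm1, of the same family (ENSMUSG00000025491, chromosome 7, 140967221 to 140969825, plus strand), lies between Ifitm2 and Ifitm3, 11234 and 39761 bases from them. Its lowest log2 value was 0, its median 0.60 and its highest 11.56. It was present in cell 36 alone (2.27%, 0.0575 to 12.02). Cell 36 also held 8 of 9 mural markers, among them the smooth muscle actin Acta2 at 13.78 and Rgs5 at 10.2, and only 5 of 10 fibroblast markers. Cell 30 held 7 mural markers and had an Ifitm1 value of 1.05, so mural RNA and Ifitm1 did not always go together. In the 6 other cells of the block of cell 36, Ifitm1 had a median of 2.43 and a highest value of 3.74, against 0.48 and 2.20 in the remaining 37 cells. The 14 cells with Ifitm1 at a log2 value of 1 therefore include 5 that share a block with the single high cell. The part of that cell in their values was not tested.

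At a log2 value of 5, the transcription factors were present in a minority of cells, while Irf1 reached a log2 value of 1 in 35 of the 44 and Stat2 in 13. Irf1 (ENSMUSG00000018899, chromosome 11, 53770014 to 53778374, plus strand), an activator induced by interferon gamma and by other stimuli, had a lowest log2 value of 0, a median of 1.92 and a highest of 10.39. It was present in 13 cells (29.5%, 16.8 to 45.2), led by cell 11 at 10.39, cell 41 at 9.67 and cell 27 at 8.18. The other 10 cells lay between 5.61 and 7.28, so the values above the threshold span a wide range. Stat2 (ENSMUSG00000040033, chromosome 10, 128270559 to 128292849, plus strand), a signal transducer of the type I response, had a lowest value of 0, a median of 0.54 and a highest of 7.03 in cell 31. It was present in cells 6, 7, 19, 28, 31, 32 and 39 (15.9%, 6.64 to 30.1). Cells 7 and 19 held both factors, with 2.07 expected from their shares.

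Bst2, or tetherin, holds budding viruses at the cell surface (ENSMUSG00000046718, chromosome 8, 71534255 to 71537456, minus strand). Its lowest log2 value was 0, its median 1.51 and its highest 7.80, in cell 40. It was present in 10 cells (22.7%, 11.5 to 37.8), which came from 5 of the 6 blocks, and it reached a log2 value of 1 in 28. Irf1 was above Bst2 in 25 cells and below it in 18, and the quartiles of neighbours in the order overlap from Irf1 down to Isg15. Bst2 was above Ifitm1 in 28 cells and below it in 13, and Stat2 was above Ifit1 in 28 and below it in 14. Ifit3 was above Isg15 in 21 cells and below it in 1, with the other 22 equal.

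Ifit1 and Ifit3 were present in few cells, at high values. Ifit1, which binds RNA ends that lack host-type cap methylation, was present in cell 38 at 7.69, in cell 1 at 7.65 and in cell 12 at 5.47 (ENSMUSG00000034459, chromosome 19, 34640871 to 34650009, plus strand). Ifit3, which binds and stabilises IFIT1 in human cells, was present in cell 10 at 8.69 and in cell 28 at 7.89 (ENSMUSG00000074896, chromosome 19, 34583531 to 34588731, plus strand). Both had a median near 0. Ifit2, also of this family, was present in 7 other cells, and no cell held more than 1 of the 3. From the shares, 0.136 cells with Ifit1 and Ifit3, 0.477 with Ifit1 and Ifit2 and 0.318 with Ifit2 and Ifit3 were expected, fewer than 1 cell in each case. Transcripts of Ifit3 shared 51.2% of their 50-base stretches with Ifit3b, its near copy, which stood at 4.15 in cell 10 and 1.96 in cell 28. How shared reads were assigned is not known, so Ifit3 is uncertain. Ifit1 shared 7.06% with Ifit1bl2, and Ifitm3 shared 3.18% with Ifitm2 and 2.38% with Ifitm1. In the annotation Ifitm2 overlaps Gm45717 on its own strand and Irf1 overlaps Gm17334 on the opposite strand. How reads in these overlaps were assigned is not known either.

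Isg15, a ubiquitin-like protein joined to other proteins during the response, was at 0 in 41 cells (ENSMUSG00000035692, chromosome 4, 156199424 to 156200818, minus strand). Its highest log2 value was 1.35, in cell 44. It was present in 0 of 44 cells, which allows a share of up to 6.82% when a count of 0 is taken to allow 3 cells, and up to 8.04% by the exact 95% interval used for the other genes. Of all symbols, 22% were likewise present in none.

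**Figure D4:**
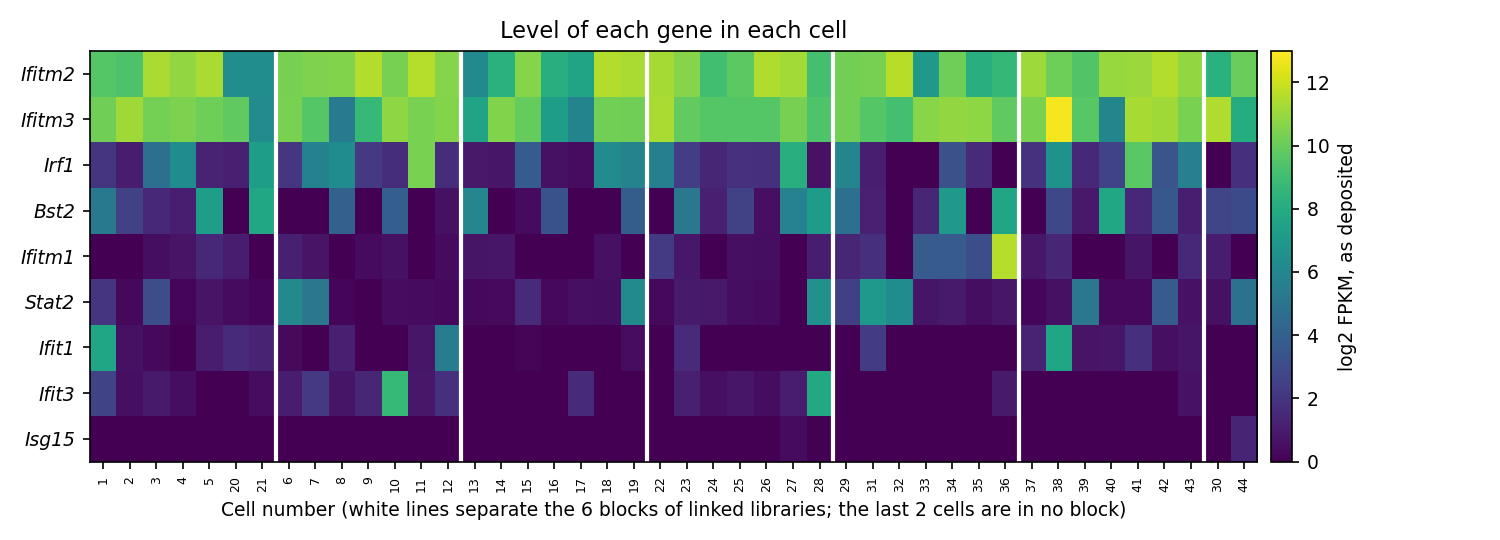
Log2 FPKM of the 9 genes (rows, ordered by median) in the 44 cells (columns, grouped by block of linked libraries). Ifitm2 and Ifitm3 are bright in most cells. The high values of Irf1, Bst2, Stat2, Ifit1 and Ifit3 are scattered over blocks, and the single high cell of Ifitm1 is cell 36.

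How the genes varied together was described over the cells. Between 2 and 5 of the 9 were present per cell: 2 in 17 cells, 3 in 19, 4 in 7 and 5 in 1. The last was cell 28, with Ifit3, Bst2 and Stat2 besides Ifitm2 and Ifitm3. With values under 5 set to 5, the 28 pairs without Isg15, which is constant on this scale, had a median Spearman correlation of -0.06 over the 44 cells, from -0.27 for Ifitm3 and Bst2 to 0.32 for Ifitm1 and Bst2. The median over all 2126953 pairs of genes present in at least 10 cells was 0.00047. Most of the 28 pairs hold a gene present in 1 to 7 cells, whose values are nearly all at the floor, so they are not comparable with all pairs. Among the 6 pairs of members that are themselves present in at least 10 cells, the median was 0.04 and 0 pairs reached 0.3. The share of all pairs, 2.99%, would give fewer than 1, so this count does not set the 6 pairs apart. The pair of Ifitm1 and Bst2 rests on cell 36, the single cell with Ifitm1, and it correlated at -0.0373 on the values as deposited. All cells share the deposited normalization, cells of a block resemble each other, and cells are not independent samples, so these correlations are descriptions.

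Among the 4 genes present in at least 10 cells, Ifitm2 and Irf1 had the highest correlation, 0.30, and 0.51 on the values as deposited. Within blocks, that is, on differences from the block mean and without cells 30 and 44, which are in no block, it was 0.20. Ifitm2 and Ifitm3 correlated at 0.14, and at 0.31 within blocks. In a ranking of 2062 genes by likeness to Ifitm3, Ifitm2 stood at place 418 and Bst2 at place 1958.

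The 3 genes most like each of the 4 are named here, and of these only Tapbp is also in an interferon pathway list. The share of listed genes among all ranked genes was not computed, so this is not read as a result. Kdelr2, a receptor that returns proteins to the endoplasmic reticulum, led for Ifitm2 at 0.49, followed by Ifrd1 at 0.47 and the constitutive chaperone Hspa8 at 0.44. Fmo2, a monooxygenase, led for Ifitm3 at 0.50, followed by Ebna1bp2 at 0.44 and Pdgfra, a receptor that marks fibro-adipogenic progenitors, at 0.44. The correlation with Pdgfra was 0.29 without the 8 cells that hold at least 3 mural or tenocyte markers. Spg20 led for Bst2 at 0.60, followed by Uqcrc1, a respiratory chain subunit, at 0.48 and Tapbp, a chaperone of MHC class I loading, at 0.45. Antxr2 led for Irf1 at 0.46, with Ap2m1 and Zbtb20 at 0.45 and 0.44. At most 1 of the 3 genes was shared under the values as deposited or with Pearson correlation for any of the 4, so these names depend on the measure.

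Ifitm2 and Ifitm3 were set beside 2 lists of genes that mark fibroblast subsets. The scores of the 2 lists correlated with each other at -0.51, so opposite signs for them are not separate observations. The Spearman correlation of Ifitm3 with the mean of 11 Cxcl14-type fibroblast genes was 0.47, and 0.36 within blocks. That of Ifitm2 was 0.30, and 0.33 within blocks. With the mean of 9 Dpp4-type genes Ifitm2 correlated at -0.29 and Ifitm3 at -0.17, at -0.39 and -0.12 within blocks, and at -0.50 and -0.39 without the 8 cells with mural or tenocyte markers. The 3 cells with the lowest Ifitm2, cells 13, 21 and 20 at 6.19, 6.35 and 6.37, held 9, 9 and 8 of the 9 Dpp4-type genes. Cells 9 and 3 also held 9, with Ifitm2 at 11.48 and 11.35, while cell 33, the next lowest at 7.01, held 4, so the list and Ifitm2 did not always go together. Cells 21 and 20 also held 8 and 9 of the 11 Cxcl14-type genes, and cell 13 held 1. Irf1 had a correlation of 0.26 with the Cxcl14-type list and Bst2 one of -0.24.

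Immediate early and heat shock genes, which respond to tissue digestion, varied alongside. Ifitm2 correlated at 0.37 with the mean of 18 such genes, Ifitm3 at 0.26, Irf1 at 0.24 and Bst2 at -0.19. The value for Ifitm3 was unsteady, at 0.14 within blocks, 0.0584 with Pearson correlation and 0.52 without the 8 cells with mural or tenocyte markers. The list, which holds Hspa8, itself correlated at 0.48 with the Cxcl14-type list and at -0.49 with the Dpp4-type list, and its part in the levels of Ifitm2 and Ifitm3 was not tested. With the mean of 10 general fibroblast markers, of which Lum is also in the Cxcl14-type list, the 4 genes correlated between -0.09 and 0.22. A total of 16 such relations were computed.

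The wider pathway is read against the 5.25% of all symbols present in at least 22 cells, the 22% present in none and their median of 2 cells. Of 8 measured receptors and kinases, Ifngr1, the ligand-binding chain for interferon gamma, was present in 36 cells, Jak1 in 24, Ifnar2 in 18 and Il10rb in 6. Ifnar1 and Ifngr2 were present in 4 cells each. Ifnb1, the only measured ligand of 8 listed, was present in 0 cells. Of 9 other STAT and IRF factors none was present in at least 22 cells, with Irf2 in 12, Stat3 in 11, Irf3 in 9 and Irf5 in 0. Irf9, the DNA-binding partner of Stat2, was present in 3.

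Among 8 negative regulators, Socs3, a cytokine-induced inhibitor of JAK kinases, was present in 25 cells, Irf2 in 12, Ptpn1 in 4 and Pias1 in 3, while Socs1 and Ptpn6 were present in 0. A list of 12 nucleic acid sensors and related signalling genes also holds Tlr4, the receptor for endotoxin, which was present in 11 cells. Of the others, Mavs was present in 8 cells, Ddx58 and Ifih1 in 5 each, and Dhx58 and Zbp1 in 0.

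Of 50 other genes listed as induced by type I interferon, 7 were present in at least 22 cells. Another 31 were present in fewer and 12 in none, with a median of 3 cells over the 50. The number in none and the median are near those of all symbols. Ly6e, a surface protein related to Sca-1, was present in 39 cells, Ifi205 in 32, Ifi27 in 30 and Shisa5 in 26. Ifit3b, Ifitm6 and Ifitm10 were among those in no cell. Whether interferon induces each listed gene was not tested. A cell held 3 to 13 of the 50, with a median of 7. Cells 1 and 28 held 13 and 12, cell 38 held 9, cell 10 held 6 and cell 12 held 3, so cells with Ifit1 or Ifit3 stood at both ends of this range.

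Of 13 GTPases induced by interferon gamma none was present in at least 22 cells, where the share of all symbols, 5.25%, would give fewer than 1. Gbp7 was present in 11, Gbp2 in 7, Iigp1 in 5 and Gbp6 in 2, and Tgtp1, Tgtp2 and Gbp9 in 0. Among 11 measured antigen presentation genes, B2m, the light chain of MHC class I, was present in 44 cells, Psme2 in 25, Tapbp in 23 and Psme1 in 18, and Nlrc5 and Cd74 in 0. Of 5 chemokines Ccl7 was present in 4 cells and Ccl2 in 3, and Cxcl9, Cxcl10 and Ccl5 in 0.

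**Figure D5:**
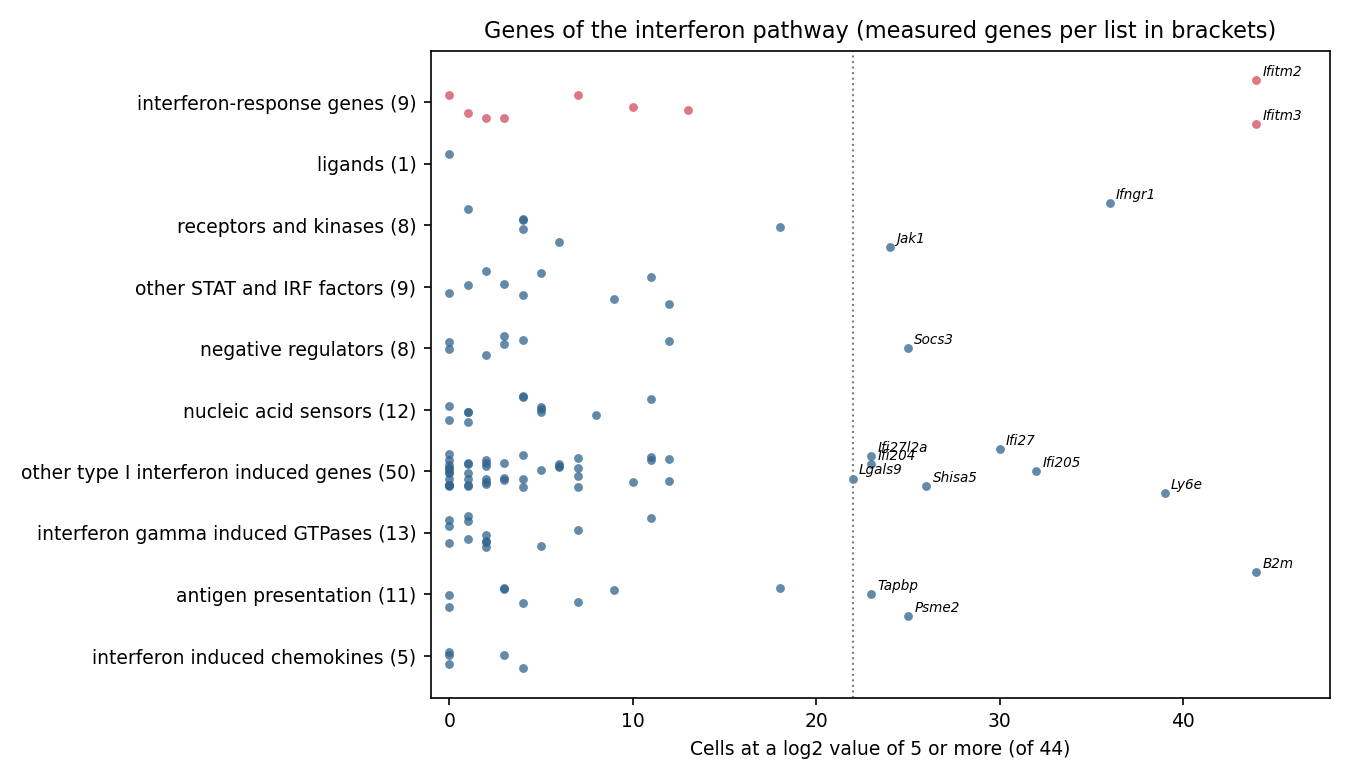
Number of cells (of 44) at a log2 value of 5 or more for each measured gene of the interferon-response genes (red) and of 9 pathway lists (blue), with a dotted line at 22 cells and names beside genes at or above it. Ifitm2, Ifitm3 and B2m stand at 44 cells and most other genes below 13.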

How the data were processed

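RNA of 44 single cells was measured as Nextera XT libraries, per the labels' protocols. GRCm38, TopHat2 and Cufflinks were used, per the submitters' processing notes, and no versions are named there. Deposited was a single table of 12745 rows, whose unit, log2, applies to all 44 cell columns. Its name gives FPKM, and the logarithm and its base were read from the values: 2 to the power of the value, minus 1, summed to 579623 to 579912 per cell. Sorted values differed by at most 0.0876 between cells over the 4000 highest ranks, so levels are closer to ranks within a cell than to amounts of RNA. How the authors did this is not stated. No counts are given, the depth is unknown, and intervals cover the number of cells only. Of the rows, 12711 had an ID known to the reference, and IDs gave back 18 symbols that had turned into dates. Where a symbol had several rows, the one with the highest mean was kept.

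Python 3.11.15, pandas 2.3.3, numpy 2.4.6, scipy 1.17.1 and matplotlib 3.10.9 were used. Blocks of linked libraries came from rank correlations over alternate rows without the 9 genes, with Otsu's threshold (0.546) and average linkage, keeping groups of at least 3. Correlations were Spearman's with values under 5 set to 5; those within blocks used differences from the block mean and left out cells 30 and 44. List scores are means of the list's log2 values with the same floor. Named are the 9 genes, the 3 genes most like each member present in at least 10 cells, and per list up to 4 genes in most cells and up to 3 in none. Other genes named in the text, including Ifnar1, Ifngr2, Irf9 and Ifit2, were chosen after their values were seen. The genes and lists were chosen with earlier results of these data known, so their patterns are no independent support. Coordinates are from GENCODE M21 on GRCm38 and promoters from RefSeq, GRCm38.p6. The likeness ranking and the block step were tested on simulated data with strongly planted genes and made-up blocks. That test does not show how reliable the weaker likenesses named here are. Genes of the lists with no row in the table are not analysed here.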

Additional observations from a re-analysis of the deposited data

How the results depend on the processing

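Of 174 alternatives, 138 stayed within the limits used: the exact interval of a share, 0.152 for a correlation and 1.5 times for a number of genes. The exact interval covers the sampling of cells and not a change of threshold. Stat2, present in 7 cells, stayed within it with 13 cells at a log2 value of 1. The correlation of Ifitm1 and Bst2, 0.32 and resting on 1 cell, was -0.0373 on the values as deposited, and none of the other recomputed correlations of 0.3 or more in size changed sign. At a log2 value of 1, the numbers of cells were 14 for Ifitm1, 11 for Ifit1, 9 for Ifit3, 28 for Bst2 and 35 for Irf1, and 22 cells held at least 5 of the 9 genes. At a log2 value of 7, they were 40 for Ifitm3, 1 for Stat2 and 4 for Irf1, and 0 cells held at least 5. At least 4 genes were held by 8 cells and at least 6 by 0. Thresholds of 4 and 6 and the choice of row for repeated symbols stayed within the limits. Within blocks, the correlation of Ifitm2 and Ifitm3 was 0.31 and that of Ifitm3 with the fibroblast list 0.21. With the values as deposited, Ifitm2 and Irf1 correlated at 0.51 and Bst2 and the immediate early list at -0.029. Without the 8 cells that hold at least 3 mural or tenocyte markers, Ifitm2 correlated at -0.50 and Ifitm3 at -0.39 with the Dpp4-type list, Ifitm3 at -0.23 and Bst2 at 0.0615 with the fibroblast list, and Ifitm3 at 0.52 with the immediate early list. Pearson correlation with the list scores, an alternative chosen after seeing the data, gave 0.28 for Ifitm3 and -0.29 for Bst2 with the fibroblast list and 0.0584 for Ifitm3 with the immediate early list. Why these values moved was not tested. Of the 3 genes most like each, 1 was shared for Ifitm2 and Ifitm3 and 0 for Bst2 and Irf1 with the values as deposited. With Pearson correlation 1 was shared for Ifitm2, Ifitm3 and Bst2 and 0 for Irf1. Within blocks 0 were shared for Ifitm3 and Bst2 and 1 for Irf1.

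The threshold decides how widespread Bst2 and Irf1 appear. Among values under 5, Irf1 reached 1 in 21 of 29 cells sharing a block with a cell at 5 or more, and in 1 of 2 others. For Bst2 these numbers were 14 of 25 and 4 of 9. The part of the block in these values was not tested. Without counts, absent and missed RNA cannot be told apart at 0. Ifitm1 has no value of 5 or more without the 8 cells, so its correlations have no value there. No paired analysis was possible because all cells belong to 1 group.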

Other observations

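Isg15 is joined to proteins by the enzymes Uba7, Ube2l6 and Herc6 and removed by Usp18. These genes were present at a log2 value of 5 in 1, 7, 1 and 2 cells, while Isg15 was present in 0. Ube2l6 was at a log2 value of 1 in 25 cells. These genes were picked after their values were seen.

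Genes of the Ifi200 family, whose proteins bind nucleic acids, differed in how many cells held them. They lie together on the minus strand of chromosome 1 (GENCODE M21 on GRCm38), with Ifi204 at 173747293 to 173766943, Ifi203 at 173920407 to 173942672 and Ifi205 at 174011998 to 174031810. Ifi205 was present in 32 cells, Ifi204 in 23 and Ifi203 in 12, with median log2 values of 7.88, 5.35 and 2.05. Reads shared between these near relatives were not examined. This family too was picked after its values were seen.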
